A study of Mus musculus with 4 samples.

Results

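Among TILs from B16ZsG melanomas, 308 of 11649 cells carried transcripts of the T cell receptor complex and of macrophages under 1 barcode. They are called dual-transcript cells here. The cells were chosen by their measured counts, with at least 3 UMIs (unique molecular identifiers, each standing for 1 captured RNA molecule) of Cd3d, Cd3e and Cd3g together and at least 10 UMIs of C1qa, C1qb, C1qc and Lyz2 together. These 7 genes are therefore described and not tested below. Such a barcode can hold a pair of cells in 1 droplet, a pair of attached cells, or 1 cell with RNA of another, and which of these applied was not tested.

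In T cells, the TCR chains sit at the surface with the CD3 chains (Cd3d, Cd3e, Cd3g), which carry the signal into the cell. Macrophages make complement C1q, which tags dying cells and debris for uptake, and lysozyme (Lyz2), which is also abundant in monocytes. Macrophages engulf and digest material from other cells and present it on MHC class II, and T cells that recognise it bind to them and can activate them through interferon gamma. In the mm10 (GRCm38) genome, the CD3 genes lie side by side on chromosome 9 (Cd3g 44969572 to 44980431, Cd3d 44981786 to 44987339, Cd3e 44998740 to 45009627). The C1q genes form a cluster on chromosome 4 (C1qb 136880129 to 136886187, C1qc 136889804 to 136893065, C1qa 136895917 to 136898803), and Lyz2 lies on chromosome 10 (117277331 to 117282321). All 7 are protein-coding genes.

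B16ZsG is a B16-F10 melanoma clone that makes the cytoplasmic fluorescent protein ZsGreen (ZsG) when given doxycycline. It was grown subcutaneously in wild-type C57BL/6 mice that drank doxycycline, and TILs were taken on day 8 and sorted by whether they carried tumor-derived ZsG. The CD45 sort (all leukocytes) and the TCRb sort (T cells) each gave 1 ZsG- and 1 ZsG+ library, so there are 4 libraries, 1 per condition, and no replicate. No test between conditions is possible, and intervals below are 95% and cover counting error only. Age and sex were not given, and tumors of several mice or flanks may have been pooled. After filtering, 4699 and 4123 cells remained in the ZsG- and ZsG+ libraries of the CD45 sort, and 948 and 1879 in those of the T cell sort. The labels of the T cell sort contradict each other on which library was ZsG+. The library with 2396 barcodes was taken as ZsG+, and if that is wrong every ZsG direction given for this sort is swapped.

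The libraries differed in what a droplet could draw from. At least 3 CD3 UMIs were found in 35.2% of ZsG- and 9.53% of ZsG+ cells of the CD45 sort, and in 69.4% of ZsG- and 41.8% of ZsG+ cells of the T cell sort. At least 10 C1q and Lyz2 UMIs were found in 6.41%, 82.7%, 10.2% and 16.7% of cells, in the same order. Myeloid cells thus made up most of the ZsG+ library of the CD45 sort. The T cell sort was not pure T cells. It held 81 and 237 cells with at least 10 C1q and Lyz2 UMIs and no CD3 UMI. It also held 123 and 628 cells with at least 3 UMIs of Siglech, a plasmacytoid dendritic cell receptor.

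Dual-transcript cells numbered 28 in the ZsG- and 205 in the ZsG+ library of the CD45 sort, and 14 and 61 in those of the T cell sort. As a share of kept cells this was 0.596% (0.396 to 0.860), 4.97% (4.33 to 5.68), 1.48% (0.810 to 2.47) and 3.25% (2.49 to 4.15). In both sorts the ZsG+ library had the higher share. As a share of all cells with at least 3 CD3 UMIs they were 1.69%, 52.2%, 2.13% and 7.77%. The ZsG+ library of the CD45 sort, with few T cells among many myeloid cells, stood far above the rest on this denominator. As a share of all cells with at least 10 C1q and Lyz2 UMIs they were 9.30%, 6.01%, 14.4% and 19.5%. On this denominator the order of the ZsG libraries was opposite in the CD45 sort (6.27 to 13.2 and 5.24 to 6.86) and in the T cell sort (8.12 to 23.0 and 15.2 to 24.3), but the intervals overlapped in both. With every cell thinned to 3000 UMIs, and shallower cells left out (357, 99, 69 and 119), the dual-transcript cells came to 12, 61, 6 and 21. They were then 0.824%, 25.7%, 1.02% and 3.11% of the cells with CD3 transcripts, in the same order of libraries.

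**Figure D1:**
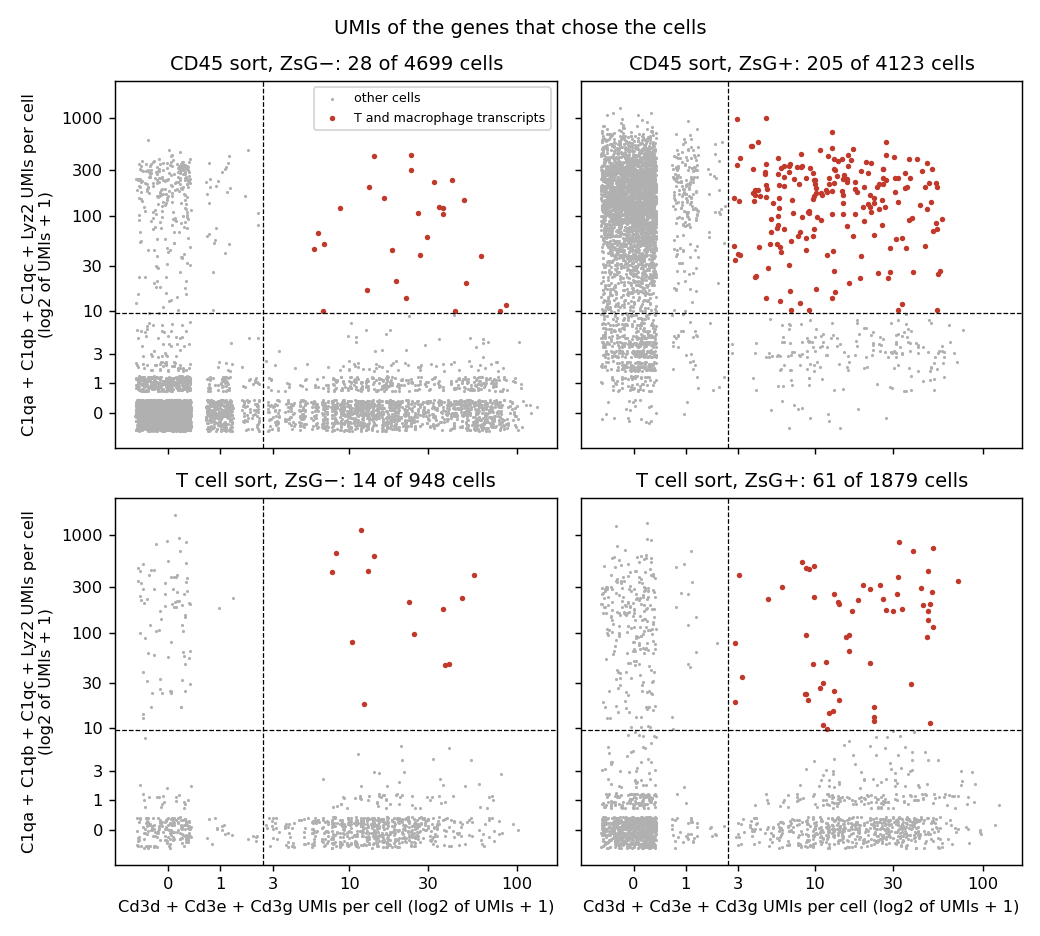
UMIs of Cd3d, Cd3e and Cd3g (horizontal) against UMIs of C1qa, C1qb, C1qc and Lyz2 (vertical) per cell, on log2 scales of UMIs + 1, in the 4 libraries. Dashed lines mark the minimums of 3 and 10 UMIs, red points are the 28, 205, 14 and 61 dual-transcript cells, and grey points are the other kept cells.

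The 2 minimums cut the libraries at different places. Of the myeloid cells in the ZsG+ library of the CD45 sort, 3011 had no CD3 UMI, 176 had 1, 19 had 2, 9 had 3, 70 had 4 to 9 and 126 had 10 or more. Few cells lay at the CD3 minimum, and most cells past it had 4 or more CD3 UMIs. On the other axis, of the CD3 cells of that library, 122 had 3 to 8 C1q and Lyz2 UMIs, 1 had 9, 4 had 10, 20 had 11 to 29, 44 had 30 to 99 and 137 had 100 or more. Of the CD3 cells in the ZsG- library of the CD45 sort, 2 had 9 such UMIs, 3 had 10, 5 had 11 to 29, 7 had 30 to 99 and 13 had 100 or more. There the dual-transcript cells ran from the edge of the rule upward with no gap.

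Cells that should lack macrophage RNA were read the same way as a background. Whether their C1q and Lyz2 UMIs were loose RNA or came from a second cell in the droplet was not tested. NK-like cells (at least 1 UMI of Ncr1, an NK cell receptor, and no CD3 UMI) reached 10 C1q and Lyz2 UMIs in 26.3% of 99 cells in the ZsG+ library of the CD45 sort, at a median depth of 4610 UMIs. The pDC-like cells defined by Siglech reached it in 16.1% of 31 cells, at a median of 7169 UMIs. CD3 cells with under 10 such UMIs (T-only cells), NK-like cells and pDC-like cells of that library each had a median of 3 such UMIs. The limit of 10 caps the median of T-only cells, so it is not comparable with the others. Of all 393 CD3 cells of that library, 205 had 10 or more. With the same cells thinned to 3000 UMIs, 24.1% (15.4 to 34.7) of 83 NK-like and 12.9% (3.63 to 29.8) of 31 pDC-like cells reached the minimum, against 45.4% (40.3 to 50.5) of 377 CD3 cells, all 3 kinds of cell being chosen before thinning. With the CD3 minimum applied after thinning the share was the 25.7% (20.3 to 31.8) given above, so how far it stood above NK-like cells depends on where the CD3 cells are chosen. The comparison with thinned NK-like and pDC-like cells was added after seeing the data. In its ZsG- counterpart, 0.748% of 1604 NK-like and 1.78% of 225 pDC-like cells reached the minimum. The 1.69% (1.13 to 2.44) of CD3 cells that did so there lay within the interval of pDC-like cells (0.486 to 4.49), and its interval overlapped that of NK-like cells (0.387 to 1.30). After thinning, the shares were 0.994% (0.569 to 1.61) of CD3, 0.687% (0.330 to 1.26) of NK-like and 1.78% of pDC-like cells, which were not distinguishable at these counts. In the T cell sort, pDC-like cells reached it in 0.813% of 123 cells (ZsG-) and 1.11% of 628 cells (ZsG+), against 2.13% and 7.77% of CD3 cells. After thinning, the shares in the ZsG+ library were 0.955% (0.351 to 2.07) of pDC-like cells and 5.85% (4.27 to 7.80) of CD3 cells chosen before thinning, or 3.11% (1.93 to 4.71) of those chosen after it.

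The genes of the rule were not shared out alike over the libraries, and as they chose the cells their detection is a description. Over all 308 cells, Cd3d was detected in 305, Cd3g in 299, Lyz2 in 307 and C1qa in 248. C1qa, however, was found in the ZsG- library of the CD45 sort in only 5 of 28 cells and C1qb in 8 of 28, with 13 and 42 UMIs in total against 3047 of Lyz2. Macrophage-only cells had at least 10 C1q and Lyz2 UMIs, no CD3 UMI, and few or no UMIs of Ncr1, Siglech and Cd79a. In the ZsG- library of the CD45 sort they had a C1qa level of 12.2 CPM (UMIs of the gene per 1000000 UMIs). In the ZsG+ library of that sort the level was 1980.5. The myeloid RNA of these 28 cells was thus that of Lyz2-bearing cells with little C1q, and the name macrophage is not borne out for them. A TCR alpha or beta constant-region UMI was present in 28, 201, 14 and 61 cells, 304 of 308 in all. An Ncr1 UMI was present in 3, 5, 0 and 1 cells.

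T and macrophage genes that the rule did not use were read next, 14 of T cells (such as Trac and Trbc2 of the TCR, the kinase Lck, and Thy1) and 15 of macrophages (such as the growth factor receptor Csf1r, the lysosomal Cd68 and the surface marker Adgre1). In the ZsG+ library of the CD45 sort, dual-transcript cells had 0 to 134 UMIs of the T genes, with a median of 29 against 35 in T-only and 0 in macrophage-only cells. They had 1 to 651 UMIs of the macrophage genes, with a median of 136 against 95 in macrophage-only and 2 in T-only cells. The median of the macrophage genes lay above that of macrophage-only cells, and the median of the T genes lay below that of T-only cells. For the ZsG+ library of the T cell sort, the T genes ranged from 7 to 117 UMIs (median 43, against 38 in T-only cells) and the macrophage genes from 3 to 686 (median 118, against 123.5 in macrophage-only cells).

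In the ZsG- libraries, the medians were 54 T gene UMIs and 46.5 macrophage gene UMIs in the CD45 sort, against 37 in T-only and 72 in macrophage-only cells. In the T cell sort they were 38.5 and 238.5, against 34 and 154. Cells that reached the 10th percentile of T-only cells in T genes and also the 10th percentile of macrophage-only cells in macrophage genes numbered 16 of 28, 155 of 205 (75.6%), 12 of 14 and 45 of 61 (73.8%). About 3 in 4 dual-transcript cells of the ZsG+ libraries thus carried both sets within the range of the upper 90% of each kind. A full T set with few macrophage genes was found in 10, 17, 0 and 10 cells. The reverse was found in 2, 27, 2 and 5 cells, and 0, 6, 0 and 1 cells reached neither level.

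**Figure D2:**
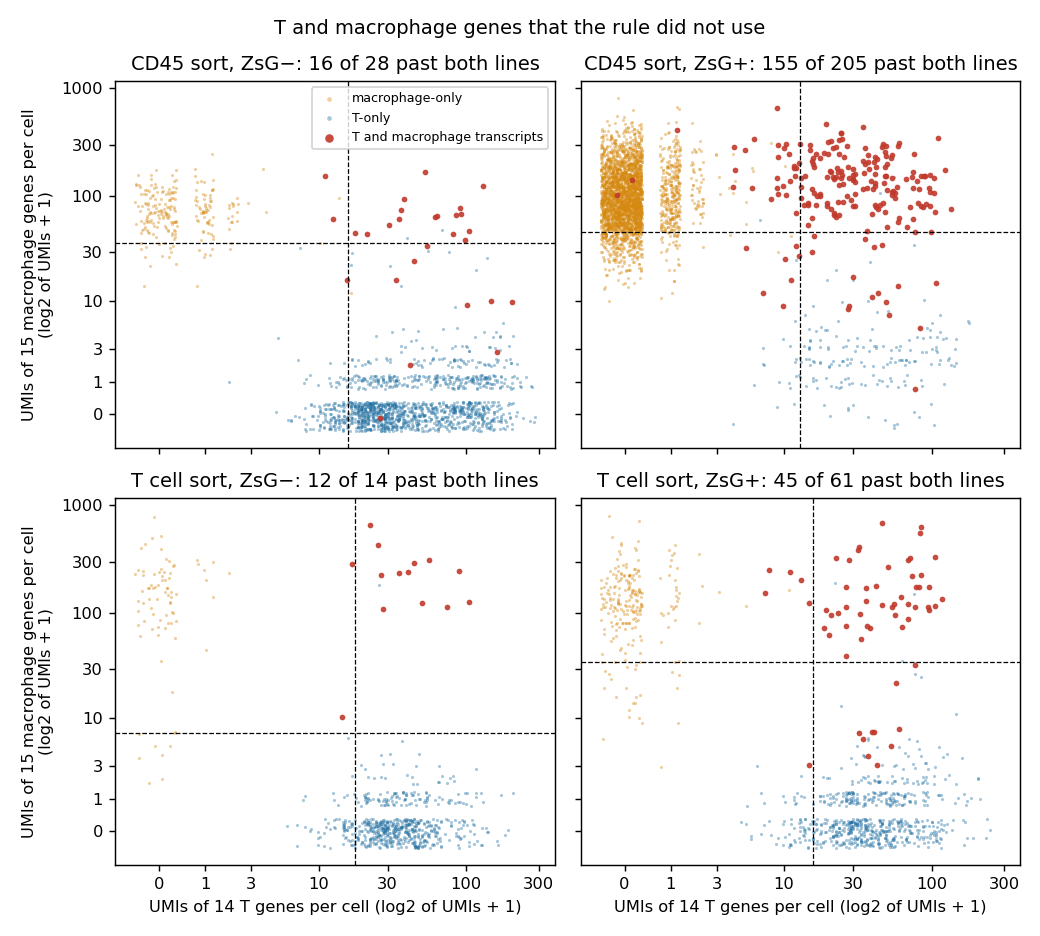
UMIs of the 14 T genes (horizontal) and of the 15 macrophage genes (vertical) outside the rule per cell, on log2 scales of UMIs + 1. Dashed lines mark the 10th percentiles of T-only cells (blue) and macrophage-only cells (orange), and 16 of 28, 155 of 205, 12 of 14 and 45 of 61 dual-transcript cells (red) lie at or past both.

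Dual-transcript cells were deep. Their median depth was 20466 UMIs in the ZsG- and 19584 UMIs in the ZsG+ library of the CD45 sort, and 27543.5 and 20129 UMIs in those of the T cell sort. T-only cells had medians of 6898, 7004, 5799 and 6165 UMIs, and macrophage-only cells 8322.5, 9994, 12569 and 10794 UMIs. In each library the median of the dual-transcript cells lay above the sum of those 2 medians, by 1.34, 1.15, 1.5 and 1.19 times. Compared by means, the ratio was 0.993, 0.886, 1.25 and 0.938 in the same order of libraries, so the mean lay above the sum of means only in the ZsG- library of the T cell sort. The rule favours deep cells, and the upper limit of 6000 genes removed deeper ones. Without that limit the ratio of means was 1.12 in the ZsG+ library of the CD45 sort and 1.01 in that of the T cell sort. The single cells ranged from 3132 to 45348 UMIs in the ZsG+ library of the CD45 sort and from 4185 to 44465 UMIs in that of the T cell sort, and they overlapped both kinds of single-lineage cells. Mitochondrial genes made up a median of 3.78%, 3.49%, 3.88% and 3.31% of UMIs, between the values of T-only and macrophage-only cells in each library.

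**Figure D3:**
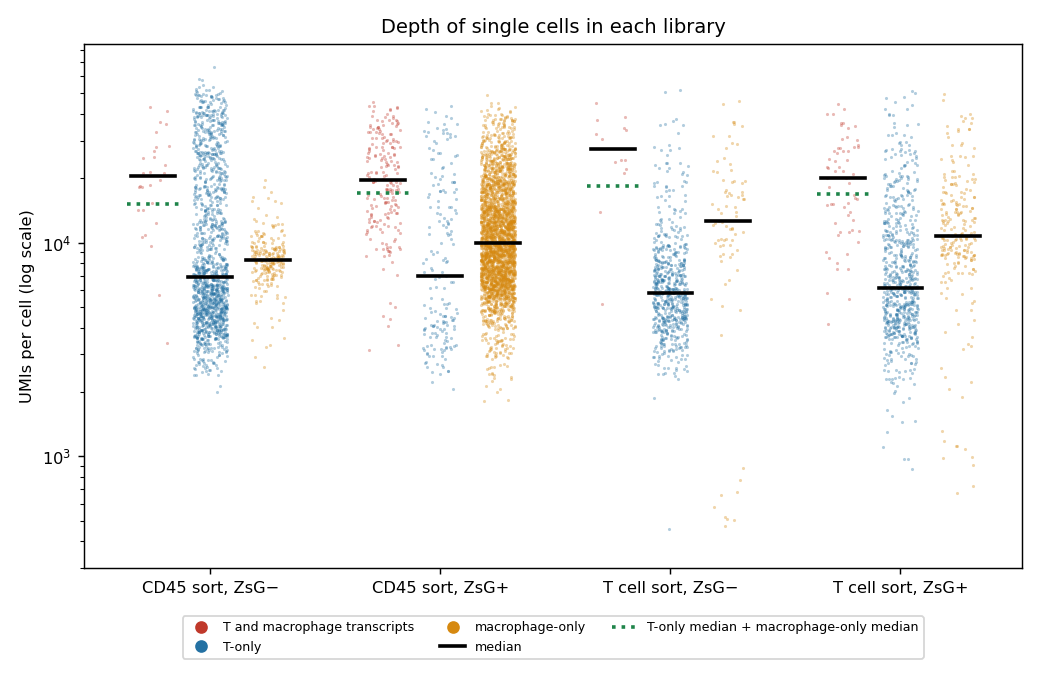
UMIs per cell on a log scale for dual-transcript (red), T-only (blue) and macrophage-only (orange) cells of each library, with medians as black bars. The green dotted line is the sum of the T-only and macrophage-only medians, and the median of the dual-transcript cells lies above it in all 4 libraries.

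To ask what exceeds a sum of the 2 kinds of cell, the UMIs of all dual-transcript cells of a library were added up and set against a weighted sum of its mean T-only cell and its mean macrophage-only cell. The weights were set so that the 14 T genes and the 15 macrophage genes outside the rule matched in total. A dual-transcript cell of the ZsG+ library of the CD45 sort held the T genes of 0.770 (0.746 to 0.793) T-only cells and the macrophage genes of 1.23 (1.21 to 1.24) macrophage-only cells. In the ZsG+ library of the T cell sort, the weights were 1.02 (0.981 to 1.06) and 1.06 (1.04 to 1.08), close to 1 cell of each kind. The T part accounted for 38.2% and 39.6% of the expected UMIs. Only these 2 libraries had the 50 cells required for a comparison gene by gene. The ZsG- libraries, with 28 and 14 cells, gave weights of 1.14 and 0.674 in the CD45 sort and 1.09 and 1.42 in the T cell sort, as values only. Which ZsG library had the larger macrophage weight thus differed between the sorts. Observed UMIs were 0.887 and 0.899 of those expected in the ZsG+ libraries, and the median gene lay at -0.14 and -0.12 on the log2 scale (0.05 and 0.07 with least squares weights).

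Most genes followed the sum. In the ZsG+ library of the CD45 sort, 91.8% of 9440 genes with at least 20 UMIs observed or expected were within 0.5 of it on the log2 scale, as were 87.9% of 6501 genes in that of the T cell sort. A gene is counted as over or under when the ratio log2((observed + 0.5)/(expected + 0.5)) passed 1, a 2-fold difference. Over the sum were 14 genes (0.148%) in the CD45 sort and 11 genes (0.169%) in the T cell sort. Under it were 67 genes (0.71%) and 79 genes (1.22%). Genes over the sum were thus 17.3% and 12.2% of those past 2-fold. With least squares weights these shares were 54.4% and 42.9%, with a plain sum of 1 cell of each kind, scaled to the observed total, 34.0% and 38.8%, and with TMM scaling of each pool 40.3% and 32.1%, so the split between over and under depends on the scaling.

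The genes over the sum were rare transcripts. No such gene had more than 27.2 expected UMIs over all 205 cells in the CD45 sort or more than 58.9 over all 61 cells in the T cell sort. With a minimum of 100 UMIs, no gene was over the sum in the CD45 sort and 1, Inhba, in the T cell sort, against 10 and 9 genes under it. Of the 6478 genes compared in both libraries, 2 were over the sum in the CD45 sort and 9 in the T cell sort, and 0 were over in both. With so few genes, nothing is read from this overlap.

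Among genes found in at least 5% of dual-transcript cells, the 10 highest in the ZsG+ library of the CD45 sort were Zfp523, Acsbg1, Lipg, Izumo1r, Zbtb37, Olfml3, Gdpd1, Gm19705, Celsr1 and Tspyl3. Lipg, an endothelial-type lipase, had 61 UMIs in 21 cells against 25.0 expected (log2 ratio 1.27, 0.86 to 1.68). It was a gene of the macrophage side, since macrophage-only cells held 286 of its UMIs and T-only cells 1. Izumo1r, a folate receptor family member found on regulatory T cells, had 62 UMIs in 31 cells against 27.2 expected (1.17, 0.56 to 1.78). Zfp523, a zinc finger protein, had 24 UMIs against 8.93 expected (1.38, 0.56 to 2.20), and Acsbg1, an acyl-CoA synthetase, had 23 against 8.62 (1.37, 0.32 to 2.41). None of the 10 was past 2-fold over in the ZsG+ library of the T cell sort, where only Lipg (24 against 13.3 UMIs) and Izumo1r (27 against 23.3 UMIs) had 20 UMIs or more. Enpp2, the enzyme autotaxin, named here after its value was seen, had the highest ratio of all (2.13) from 30 UMIs in 7 cells.

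In the ZsG+ library of the T cell sort, several genes over the sum came from very few cells. They are named after their values were seen, although Nos2 and Fscn1 also belong to the lists. Nos2, the inducible nitric oxide synthase of activated macrophages, had 69 UMIs against 22.0 expected (1.63), and 30 of these were in 1 of 7 cells. Inhba, a subunit of activin, had 144 UMIs against 58.9 expected (1.28), with 84 in 1 of 10 cells. Fscn1, an actin-bundling protein of mature dendritic cells, had 26 UMIs against 7.01 expected, all in 1 cell. In the CD45 sort, Nos2 lay on the sum, with 99 UMIs against 99.8 expected, and Fscn1 lay under it, with 11 UMIs in 3 cells against 30.2 (-1.42). Of the 3 mature dendritic cell genes (Fscn1, Ccr7 and Ccl22), 2 were past 2-fold under in the CD45 sort, with a median of -1.42. Among all genes tested there, 0.71% were past 2-fold under and the median was -0.14. In the T cell sort 1 of 2 tested genes of the list was over and 0 were under (median 0.89). There, 0.169% of all tested genes were over.

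The 10 lowest genes in the ZsG+ library of the CD45 sort were Hp, Aurka, Lrr1, Gzmc, Il6, Ccl1, Bhlhb9, Tti2, Hes1 and Cd209a. Without the upper gene limit 5 of these 10, and 6 of the 10 highest, stayed past 2-fold, and with a plain sum 7 and 8 did. In that of the T cell sort, 6 of the 10 were also past 2-fold under, 3 of them (Aurka, Bhlhb9 and Hes1) with fewer than 20 UMIs observed or expected. Hp, the haemoglobin-binding haptoglobin, had 30 UMIs against 113 expected in the CD45 sort (log2 ratio -1.90, -2.42 to -1.38) and 19 against 71.9 in the T cell sort (-1.89, -2.56 to -1.23). The cytokine gene Il6 had 27 against 70.6 UMIs (-1.37, -1.92 to -0.82) and 20 against 39.1 (-0.95). Ccl1, a chemokine made by activated T cells, had 236 against 595 UMIs in the CD45 sort (-1.33) and 256 against 273 in the T cell sort (-0.09), where 220 were in 1 of 5 cells.

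Under the sum in both ZsG+ libraries were 9 genes, which is 69.2% of the 13 genes under in the CD45 sort and 11.8% of the 76 in the T cell sort among those tested in both. They were Retnla, Ccl17, Hp, Ear2, Gzmc, Cd209a, Ifitm6, Dmkn and Slpi. In the CD45 sort 5 of the 9 remained past 2-fold under with a plain sum and 6 without the upper gene limit, and without that limit Gzmc turned to 1.22 in the T cell sort. Ifitm6, an interferon-induced transmembrane family gene, was the most widely found, with 114 UMIs in 50 cells against 263 expected in the CD45 sort (-1.20) and 44 UMIs in 11 cells against 124 in the T cell sort (-1.49). Slpi, a secreted protease inhibitor, had 57 against 126 UMIs (-1.14) and 30 against 96.7 UMIs (-1.67). The dendritic cell chemokine Ccl17 had 21 against 152 UMIs in the CD45 sort (-2.83) and 0 against 37.99 in the T cell sort, where its 134 macrophage-only UMIs came from 2 cells. Some of these expected values rested on single reference cells. Retnla, a secreted protein of alternatively activated macrophages, had 1 UMI against 46.2 expected in the CD45 sort (-4.96, -7.27 to -2.65) and 1 against 301 in the T cell sort (-7.65, -9.96 to -5.34), but 1032 of the 1079 macrophage-only UMIs in the T cell sort came from 1 of 3 cells. Gzmc, a granzyme of strongly activated killer T cells, had 258 against 710 UMIs in 26 cells (-1.46), and 222 of the 818 T-only UMIs were in 1 cell. Its 13 UMIs in the T cell sort were all in 1 cell.

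**Figure D4:**
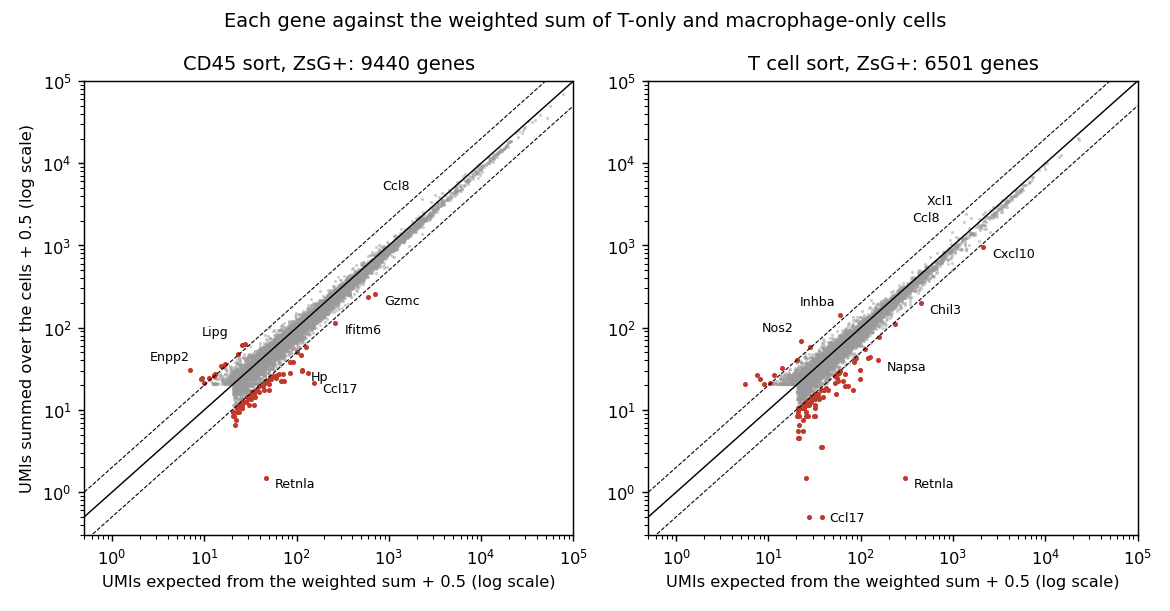
UMIs summed over dual-transcript cells (vertical) against UMIs expected from the weighted sum (horizontal) for 9440 genes in the ZsG+ library of the CD45 sort and 6501 in that of the T cell sort, both on log scales with 0.5 added. The solid line is equality, dashed lines mark 2-fold, and red points are the 14 and 67 genes (left) and the 11 and 79 genes (right) past it.

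On the T side, CD8 transcripts were the commonest class. A Cd8a or Cd8b1 UMI without a Cd4 UMI was found in 53.6% of 28, 55.1% of 205, 85.7% of 14 and 70.5% of 61 dual-transcript cells, against 60.4%, 62.3%, 66.1% and 62.6% of T-only cells. Per 1000 UMIs of the 14 T genes, which sets aside the difference in depth, CD8 transcripts differed from T-only cells by -0.34 (-0.54 to -0.15), -0.09 (-0.22 to 0.03), -0.09 (-0.42 to 0.20) and -0.02 (-0.17 to 0.11) on the log2 scale. By UMIs, the CD8 level was thus near that of T-only cells of the same library except in the ZsG- library of the CD45 sort. There it was lower, but the 217 CD8 UMIs came from 17 cells, the largest holding 32. The interval of the share of cells there (33.9 to 72.5) took in the 60.4% of T-only cells, so these 28 cells do not settle it. A Cd4 UMI without CD8 was found in 17.9%, 15.6%, 7.14% and 11.5% of dual-transcript cells, against 5.38%, 12.0%, 11.4% and 15.2% of T-only cells. Since macrophages of the mouse can themselves carry some Cd4, the same share was read in macrophage-only cells, where it was 0.435%, 0.235%, 1.25% and 0.862%.

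Foxp3, the transcription factor that defines regulatory T cells, varied between libraries. It was detected in 11 of 28 (39.3%), 38 of 205 (18.5%), 0 of 14 and 8 of 61 (13.1%) dual-transcript cells, against 4.67%, 10.4%, 5.77% and 17.6% of T-only cells. A count of 0 of 14 cells allows a share of cells with a Foxp3 UMI of up to 21.4% (3 cells of the total). Macrophage-only cells had a Foxp3 UMI in 0.168% of 2980 cells in the ZsG+ library of the CD45 sort and in 0 cells of the other libraries. Per 1000 UMIs of the T genes, Foxp3 came to 28.5 against 2.68 in T-only cells in the ZsG- library of the CD45 sort (log2 ratio 3.42, 2.95 to 3.84). It came to 12.8 against 6.44 in the ZsG+ library of that sort (0.98, 0.50 to 1.48). In the ZsG+ library of the T cell sort it was 9.85 against 10.8 (-0.11, -0.72 to 0.41). Per T gene UMI, a Foxp3 level above that of T-only cells was therefore seen in the CD45 sort and not in the T cell sort. In the ZsG+ library of the CD45 sort this ratio was 0.61 with T-only cells of at most 2 C1q and Lyz2 UMIs. The shares of cells with a Foxp3 UMI there had overlapping intervals (13.5 to 24.5, against 6.37 to 15.7 of T-only cells), and the T-only cells were shallower.

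The 11 Foxp3-bearing cells of the ZsG- library of the CD45 sort each had at least 2 Foxp3 UMIs, and 5 of them also had a CD8 UMI. Other genes of regulatory T cells were over the weighted sum in these 28 cells, given as values only. Il2ra, a receptor chain for interleukin 2, had 105 UMIs against 25.7 expected. Ctla4, an inhibitory receptor, had 211 against 82.1, and Ikzf2, which encodes Helios, had 249 against 143. Areg, a growth factor, had 102 against 27.4, of which 57 were in 1 cell. As values, the ZsG- library of the T cell sort went the other way. There Ikzf2 had 13 against 51.0, all in 1 cell, and Ctla4 had 7 against 28.0. Il2ra (7 against 8.34) and Areg (10 against 16.7) also lay below the sum there, with intervals that included 0. In the ZsG+ libraries, the 5 genes of this list had medians of 0.09 (CD45 sort) and -0.12 (T cell sort). No gene of the list was past 2-fold over. In the CD45 sort Foxp3 came nearest, with 98 UMIs against 49.6 expected (0.98). In the T cell sort Foxp3 had 30 against 32.7 (-0.12), and the highest gene of the list lay at 0.20. Areg was past 2-fold under in the T cell sort, with 42 against 119 UMIs (-1.49), as were 1.22% of all genes tested there.

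Genes of T cell activation were uneven. Xcl1, a chemokine that draws cross-presenting dendritic cells, had 728 UMIs against 1147 expected in the ZsG+ library of the CD45 sort (-0.66) and 2409 against 1393 in that of the T cell sort (0.79), where 1065 were in 1 of 21 cells. Ifng, which encodes interferon gamma, had 982 against 882 (0.16) and 1927 against 1316 (0.55), with 373 and 562 UMIs in 1 cell. As values, both genes lay far below the sum in the ZsG- library of the CD45 sort, with 40 against 196 UMIs of Ifng (-2.28) and 23 against 222 UMIs of Xcl1 (-3.24). In the ZsG- library of the T cell sort they lay above it, with 280 against 73.0 and 240 against 39.2 UMIs, but 258 and 221 of these were in 1 cell. The activation list had medians of -0.27 and 0.01, and 0 of its 10 tested genes were past 2-fold in either library. The effector list (granzymes, perforin, Nkg7, Ccl5 and Ifng) had medians of -0.18 and 0.18, with 0 of 7 genes past 2-fold. The exhaustion list, with the inhibitory receptors Pdcd1, Havcr2 and Lag3, had medians of -0.41 and 0.08, with 0 of 5 tested genes past 2-fold. Over all tested genes, the medians were -0.14 and -0.12. The medians of the 3 lists were thus below that of all genes in the CD45 sort and above it in the T cell sort. Their sums were -0.11, -0.05 and -0.27 in the CD45 sort and 0.25, 0.17 and 0.04 in the T cell sort, so that in the CD45 sort the activation and effector sums lay above the median gene. The sign of the summed effector, activation, exhaustion and regulatory lists in the CD45 sort and of the exhaustion list in the T cell sort changed under at least 1 other setting.

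On the macrophage side, genes of resting macrophages lay near or above the sum in the ZsG+ libraries and genes of inflammatory monocytes below it. Ms4a7, a membrane protein of mature macrophages, had 1003 UMIs in 135 cells against 780 expected in the CD45 sort (0.36, 0.27 to 0.46) and 333 UMIs in 43 cells against 258 in the T cell sort (0.37, 0.19 to 0.55). Apoe, which carries lipids, had 4792 against 4495 (0.09) and 2442 against 2097 (0.22). The resting macrophage list (Ms4a7, Apoe, Trem2 and Mrc1) had medians of 0.01 and 0.16, with 0 of 4 genes past 2-fold in either library. Mrc1, a mannose receptor, lay below the sum in the CD45 sort with 447 against 496 UMIs (-0.15), as did Trem2, a lipid-sensing receptor, with 502 against 530 (-0.08). Ms4a7 and Apoe are among the 15 genes that set the macrophage weight. As a value only, Ms4a7 in the ZsG- library of the T cell sort had 175 UMIs against 87.9. Apoe in the ZsG- library of the CD45 sort lay on the other side, with 256 against 299 (-0.22, -0.41 to -0.04).

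Of the 6 inflammatory monocyte genes, 1 (Dmkn) was past 2-fold under in the CD45 sort and 2 (Chil3 and Dmkn) in the T cell sort, and 0 were over. Among all tested genes, 0.71% and 1.22% were past 2-fold under. The medians of the list were -0.56 and -0.66, against -0.14 and -0.12 over all genes. Chil3, a secreted chitinase-like protein, had 552 UMIs in 105 cells against 952 expected in the CD45 sort (-0.79, -0.91 to -0.66) and 198 UMIs in 25 cells against 444 in the T cell sort (-1.16, -1.38 to -0.95). Plac8, a monocyte gene that T cells also carry, had 4697 against 5934 (-0.34) and 1133 against 1935 (-0.77). Ccr2, the receptor that brings monocytes out of the blood, had 1593 against 1943 (-0.29) and 413 against 606 (-0.55). Per 1000 UMIs of the 15 macrophage genes, the whole list was at -0.15 (-0.18 to -0.12) and -0.33 (-0.38 to -0.27) of macrophage-only cells. In the ZsG- libraries it was at 0.24 (0.17 to 0.32) in the CD45 sort and -0.66 (-0.77 to -0.55) in the T cell sort. Against the weighted sum, which also counts the Ly6c2 and Plac8 of T cells, the genes of the ZsG- library of the CD45 sort were mixed, with 218 against 290 UMIs of Chil3, 295 against 454 of Ly6c2 and 799 against 873 of Plac8, but 222 against 183 of Ccr2. With a plain sum, the list in the ZsG+ library of the CD45 sort came to 0.00.

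The 28 cells of the ZsG- library of the CD45 sort also carried genes of non-classical monocytes, the patrolling monocytes of blood vessels. Hpgd was found in 13, Cx3cr1 in 14, Ace in 8 and Treml4 in 8 of 28 cells, and the whole list stood at 85.5 per 1000 macrophage gene UMIs, against 70.1 in macrophage-only cells of the same library. The same list in the ZsG+ library of the CD45 sort stood at 4.07 per 1000 in dual-transcript and 3.43 in macrophage-only cells. On this list, the myeloid RNA of the dual-transcript cells thus differed between these libraries as that of macrophage-only cells did. The resting macrophage list as a whole did not follow this. In the ZsG- and ZsG+ libraries it stood at 184 and 218 per 1000 in dual-transcript cells, and at 212 and 204 in macrophage-only cells. Most of its UMIs in the 28 cells were of Apoe, with 3 of 273 from Ms4a7 and 11 from Trem2. Ms4a7 alone did follow it, at 2.02 and 32.4 per 1000 in dual-transcript and 1.51 and 25.5 in macrophage-only cells. So did Trem2, at 7.41 and 16.2 and at 5.88 and 17.2.

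**Figure D5:**
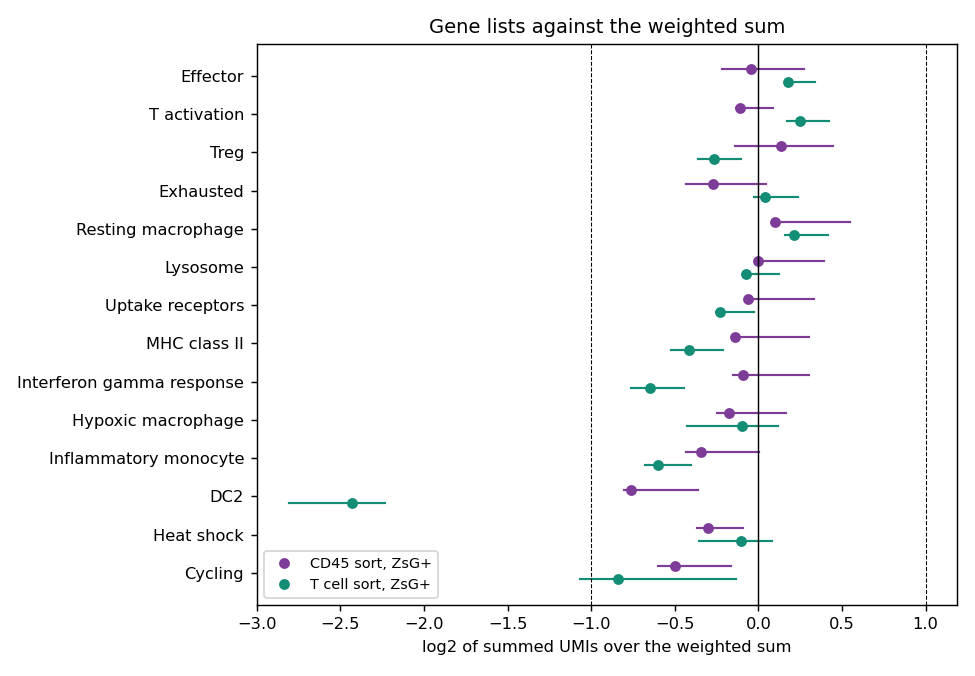
Log2 ratio of summed UMIs over the weighted sum for 14 gene lists in the ZsG+ libraries of the CD45 sort (purple) and the T cell sort (green). Points are the main values, bars span all settings tried, and dashed lines mark 2-fold. Inflammatory monocyte genes lie at -0.34 and -0.60 and cycling genes at -0.50 and -0.84.

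Genes of antigen presentation and of the response to interferon gamma were followed next. The 5 MHC class II genes had a median of -0.14 in the ZsG+ library of the CD45 sort, the same as all genes, and -0.44 in that of the T cell sort, with 0 of 5 past 2-fold in either. As values, all 5 lay above the sum in the ZsG- library of the CD45 sort (0.42 to 0.59), where 1 cell held 312 of their 1017 UMIs. In the ZsG- library of the T cell sort all 5 lay below it (-0.64 to -0.25). Cxcl9 and Cxcl10, interferon gamma-induced chemokines that attract activated T cells, had 5474 against 6001 UMIs (-0.13) and 6317 against 6441 UMIs (-0.03) in the CD45 sort. In the T cell sort Cxcl9 had 874 against 1388 UMIs (-0.67) and Cxcl10 952 against 2133 UMIs (-1.16, -1.26 to -1.07). The interferon gamma response list had medians of -0.03 in the CD45 sort and -0.34 in the T cell sort, where 2 of 11 tested genes (Cxcl10 and Ciita) were past 2-fold under and 0 were over. Of all genes tested in that library, 1.22% were past 2-fold under. As values, the ZsG- library of the T cell sort went the other way, with 738 against 485 UMIs of Cxcl9 (0.60) and 924 against 678 UMIs of Cxcl10 (0.45). Per 1000 macrophage gene UMIs, the list was at 0.41, 0.00, 0.39 and -0.52 of macrophage-only cells on the log2 scale, in the order of libraries used above. On this measure only the ZsG+ library of the T cell sort stood below them. T-only cells also carried the list, at 10.8, 13.0, 9.89 and 8.36 UMIs per cell, so RNA of the T side raises these ratios. Against the weighted sum, which counts that RNA, the list summed to -0.09 and -0.65 in the ZsG+ libraries of the CD45 and T cell sorts. The lysosome list (cathepsins, Lamp1, Cd63 and Gpnmb) had medians of -0.06 and -0.20, and the list of uptake receptors such as Mertk and Axl had medians of -0.05 and 0.10. In the T cell sort the uptake list summed to -0.23, opposite in sign to its median. No gene of either list was past 2-fold in the CD45 sort, and in the T cell sort 1, Cd36, was past 2-fold under (77 against 158 UMIs, -1.03). The sign of the sum in the CD45 sort changed under at least 1 other setting for the MHC class II, interferon gamma, lysosome and uptake lists, as did that of the lysosome list in the T cell sort.

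Cycling genes lay below the sum in both ZsG+ libraries. The list summed to -0.50 in the CD45 sort and -0.84 in the T cell sort. Its medians were -0.47 and -0.88, against -0.14 and -0.12 over all genes. Past 2-fold under were 0 of 9 genes in the CD45 sort and 2 of 9 (Cdk1 and Rrm2) in the T cell sort. Among all tested genes these shares were 0.71% and 1.22%. Mki67, a marker of dividing cells, had 560 against 877 UMIs (-0.65) and 60 against 106 UMIs (-0.81). Without the upper limit of 6000 genes the list came to -0.16 and -0.13, so its position depended on that limit. At least 2 UMIs of Mki67 or Top2a were found in 39.3%, 40.0%, 28.6% and 31.1% of dual-transcript cells, against 28.0%, 42.1%, 7.18% and 16.4% of T-only cells, which were shallower. In the ZsG- libraries, Mki67 had 129 against 88.1 UMIs in the CD45 sort and 28 against 12.8 in the T cell sort, where 19 were in 1 cell.

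Genes of cDC2 dendritic cells summed to less than expected in both ZsG+ libraries. The list (Cd209a, Mgl2 and Ffar2) had 229 UMIs against 389 expected in the ZsG+ library of the CD45 sort (-0.76) and 22 against 121 in that of the T cell sort (-2.43). Past 2-fold under were 1 of 3 and 2 of 2 tested genes, against 0.71% and 1.22% of all tested genes. In the ZsG+ library of the T cell sort, the macrophage-only UMIs of Cd209a came from 10 cells, with 45 of 132 in 1 cell. As a value, Cd209a in the ZsG- library of the CD45 sort went the other way, with 40 UMIs in 3 of 28 cells against 17.8 expected (1.14). However, 27 of these 40 UMIs were in 1 cell. Melanoma transcripts (Pmel, Dct, Tyrp1, Mlana and Tyr) were sparse, with 1, 58, 14 and 29 UMIs in all, or 1.67, 13.2, 36.1 and 22.7 CPM. Macrophage-only cells had 1.02, 22.0, 21.8 and 23.1 CPM and T-only cells 0.380, 2.28, 3.41 and 9.84 CPM. Pmel gave the only UMI in the ZsG- library of the CD45 sort, Dct the most in both ZsG+ libraries, and Pmel, Dct and Tyrp1 had 4 each in the ZsG- library of the T cell sort. Of the 5 genes, 4, 0, 1 and 1 were at 0. The intervals of the dual-transcript cells were 10.0 to 17.1 in the ZsG+ library of the CD45 sort, between the T-only and macrophage-only levels, and 15.2 to 32.7 in that of the T cell sort, where they took in the macrophage-only level. Whether this RNA was inside the cells or loose in the suspension was not tested.

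Xist, the RNA of the inactive X chromosome in females, had 0 UMIs in all 308 dual-transcript cells, and the Y-linked genes Ddx3y, Eif2s3y, Kdm5d and Uty together had 94, 614, 42 and 186 UMIs, found in 26 of 28, 180 of 205, 14 of 14 and 54 of 61 cells. T-only cells of the ZsG- library of the CD45 sort had 1 Xist UMI, and no other T-only or macrophage-only cells had any. Y-linked genes were found in 70.3%, 60.7%, 70.8% and 66.1% of T-only and 71.7%, 65.2%, 73.8% and 64.2% of macrophage-only cells. These genes therefore cannot mark a barcode that holds cells of different animals. Between the 4 libraries, 11 barcodes of kept cells were shared, 3 of them those of a dual-transcript cell, and 0 were dual-transcript cells in both libraries.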

How the data were processed

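Libraries were made with the 10x 3′ v3.1 kit. Per the submitters' notes, reads were aligned to mm10 with Cell Ranger 6.1.2 (header of the CD45 matrix, 7.0.0) and combined by sort. The deposited values are UMI counts per gene and barcode, not normalized, with 32285 genes listed in the CD45 matrix and 31053 in the T cell matrix. The number of unused per-sample columns was 0. The libraries held 5437, 5168, 1136 and 2396 barcodes and 47537541, 56510578, 10030971 and 22100220 UMIs (CD45 ZsG-, CD45 ZsG+, T ZsG-, T ZsG+). Positions are from GENCODE for GRCm38.

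Cells of the CD45 sort were kept with at least 1000 and fewer than 6000 genes and under 10% mitochondrial UMIs, and those of the T cell sort with at least 50 and fewer than 6000 genes and under 15%. The members and gene lists were chosen with earlier results of these data known. T-only cells had at least 3 CD3 UMIs and under 10 C1q and Lyz2 UMIs, and macrophage-only cells had 0 and at least 10. Both had no Ncr1 UMI and under 3 UMIs of Siglech and of Cd79a. No doublet caller was run and no doublets were removed. Sums were compared within a library only, genes of the rule left out. Named genes were the 10 highest and 10 lowest ratios in the ZsG+ library of the CD45 sort among genes in at least 5% of cells, up to 10 a direction past 2-fold in both ZsG+ libraries, and all genes of described lists. Intervals are Clopper-Pearson for shares and Poisson-based for UMIs. The alternatives were stricter minimums, other gene and mitochondrial limits, a stricter T-only reference, least squares, plain or TMM scaling (edgeR 4.0.16, R 4.3.3), other UMI minimums and thinning. Computations ran in Python 3.11.15 with pandas 2.3.3, scipy 1.17.1 and numpy 2.4.6, and plots were drawn with matplotlib 3.10.9. The fit was tested on simulated data.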

Additional observations from a re-analysis of the deposited data

Results flagged for a closer look

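Outside the limits on genes and mitochondrial UMIs, 60 further barcodes met both UMI minimums (4, 47, 4 and 5 in the libraries CD45 ZsG-, CD45 ZsG+, T ZsG- and T ZsG+), and 53 of them had 6000 genes or more. They were looked at because they carry the same transcripts in data that the comparisons leave out.

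Values whose ZsG direction was opposite in the CD45 sort and the T cell sort were also picked out. The differences were not tested, since each condition had 1 library, and the directions of the T cell sort swap if its labels are reversed. Of cells with at least 10 C1q and Lyz2 UMIs, 9.30% (6.27 to 13.2, ZsG-) and 6.01% (5.24 to 6.86, ZsG+) were dual-transcript cells in the CD45 sort, and 14.4% (8.12 to 23.0) and 19.5% (15.2 to 24.3) in the T cell sort. The intervals overlap in both sorts. The weight of the macrophage part was 0.674 (ZsG-) and 1.23 (ZsG+) in the CD45 sort, and 1.42 and 1.06 in the T cell sort. The share of dual-transcript cells with a Foxp3 UMI was 39.3% (21.5 to 59.4, ZsG-) and 18.5% (13.5 to 24.5, ZsG+) in the CD45 sort, and 0% (no Foxp3 UMI in 14 cells) and 13.1% (5.84 to 24.2) in the T cell sort. The intervals overlap in the CD45 sort, and the limit that 0 of 14 cells allows, 21.4%, lies above the 13.1%.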

How the results depend on the processing

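No paired analysis was possible because each condition had 1 library. Of 1176 values recomputed under other settings, 951 moved by less than their counting interval (counts of genes, by less than 1.5 times), 222 moved further and 3 reversed, from 2 genes, with Gzmc counted under 2 rules. Among the values of lists, 38 changed sign without having been past 2-fold. The other UMI minimums changed only which genes were tested, so the ratios of named genes and lists could not move under them. Those unmoved ratios are counted in the 951. Hp, Gzmc and Cd209a were also each counted under 2 rules. The 951 therefore overstates how stable the values were. Thinning to 3000 UMIs left 12, 61, 6 and 21 dual-transcript cells. The mean depth over the sum of the reference means (0.886 CD45 ZsG+, 0.938 T ZsG+) became 0.893 and 0.947 with at least 5 CD3 UMIs, 0.914 and 1.05 with at least 30 C1q and Lyz2 UMIs, 0.888 and 0.931 with a TCR and no Ncr1 UMI, 0.80 and 0.942 under 5% mitochondrial UMIs, 1.12 and 1.01 without the upper gene limit, and 0.923 and 0.943 with T-only cells of at most 2 C1q and Lyz2 UMIs. The T part of the expected UMIs was 40.6% (at least 5 CD3 UMIs), 35.7% (at least 30 C1q and Lyz2 UMIs) and 34.6% (least squares) in the CD45 sort, and 36.3% (at least 30) and 37.97% (no upper gene limit) in the T cell sort.

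Genes over the sum in the CD45 sort (14) numbered 28 under 5% mitochondrial UMIs, 38 with the stricter T-only cells, 37 with least squares, 32 with a plain sum, 27 with TMM, 0 with a minimum of 100 UMIs and 1029 with a minimum of 1. Genes under it (67) numbered 42 without the upper gene limit, of which 22 were among the 67, 117 with the stricter T-only cells, 31 with least squares, 40 with TMM, 10 with a minimum of 100 UMIs and 873 with a minimum of 1. In the T cell sort, genes over (11) numbered 21 (at least 30 C1q and Lyz2 UMIs), 19 (under 5% mitochondrial UMIs), 23 (no upper gene limit), 36 (least squares), 31 (plain sum), 27 (TMM), 1 (minimum of 100) and 666 (minimum of 1). Genes under (79) numbered 48 (least squares), 49 (plain sum), 9 (minimum of 100) and 969 (minimum of 1). Least squares moved the median gene from -0.14 to 0.05 and from -0.12 to 0.07. The inflammatory monocyte ratio per 1000 macrophage gene UMIs (-0.15 and -0.33) was -0.20 (under 5%) and -0.24 (no upper limit) in the CD45 sort, and -0.45 (at least 30) and -0.41 (under 5%) in the T cell sort. Without the upper limit, Aurka (0.23) and Gzmc (1.22) reversed in the T cell sort. The causes were not tested. The fits without the upper limit and those of the ZsG- libraries were chosen after seeing the data. The number of cells limits the ZsG- libraries most, where 28 and 14 cells left the gene comparison as values.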

Other observations

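Some genes outside the lists, named after their values were seen, also stood apart. Ccl8, a chemokine of tissue macrophages, had 3658 UMIs in 124 dual-transcript cells against 2300 expected in the ZsG+ library of the CD45 sort (log2 ratio 0.67, 0.62 to 0.72), with 788 in 1 cell. In the ZsG+ library of the T cell sort it had 1478 UMIs in 30 cells against 968 (0.61, 0.52 to 0.70), with 314 in 1 cell. Ch25h, which makes 25-hydroxycholesterol, had 275 against 181 UMIs in the CD45 sort (0.61) and 52 against 57.5 in the T cell sort (-0.14). Pf4, a chemokine found in tissue macrophages and platelets, had 811 against 780 UMIs (0.06) and 372 against 463 UMIs (-0.32). The nuclear RNA Malat1 had 38605 against 43260 UMIs (-0.16) and 12599 against 14828 UMIs (-0.24), near the median gene. In the ZsG- library of the T cell sort, as values over 14 cells, Ccl8 had 841 UMIs against 119 expected (2.82), with 330 in 1 cell, Ch25h had 58 against 4.97 (3.42) and Pf4 had 459 against 155 (1.57).

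Heat shock genes, which tissue digestion can induce, summed to -0.30 in the ZsG+ library of the CD45 sort (median -0.33) and -0.10 in that of the T cell sort (median 0.07). NK cell genes (Ncr1, Klrb1c, Klra8 and Klre1) stood at 51.6, 27.3, 67.0 and 32.9 CPM (UMIs of these genes per 1000000 UMIs) in dual-transcript cells of the libraries CD45 ZsG-, CD45 ZsG+, T ZsG- and T ZsG+, against 122, 71.6, 60.8 and 39.4 in T-only cells. Neutrophil genes stood at 18.3, 26.4, 23.2 and 30.6 CPM, against 65.0, 32.4, 32.7 and 89.4 in macrophage-only cells, and Csf3r gave 11, 106, 9 and 33 of their 11, 116, 9 and 39 UMIs. B cell genes stood at 10.0, 5.01, 5.16 and 7.84 CPM.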
